A study of Mus musculus with 6 samples.

Results

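The 9 genes described here encode cell adhesion proteins that join the 2 sides of a synapse: the neurexins Nrxn2 and Nrxn3, the neuroligins Nlgn1, Nlgn2 and Nlgn3, and the leucine-rich repeat transmembrane proteins Lrrtm1, Lrrtm2, Lrrtm3 and Lrrtm4. They were chosen by gene symbol, 9 of the 20620 genes in the deposited count table. RNA came from the hippocampus of 6 adult male mice on a C57BL/6J background, 1 library per mouse, 3 in each of 2 groups. The 3 control mice carried Braf Q241R Neo/+, an allele with a Q241R substitution in the kinase BRAF that still holds its Neo cassette, and were 31 to 32 weeks old. The 3 n-Braf mice carried Braf Q241R/+ with a CaMKII-Cre transgene and were 32 to 34 weeks old. Both groups therefore carry 1 mutant Braf allele. Per the design text, the mutant is expressed in n-Braf mice in mature excitatory neurons, the cells in which the CaMKII promoter drives Cre. The libraries were made from whole hippocampus, which also holds inhibitory neurons and glia. The Neo cassette and the Cre transgene differ between the groups together, so their effects cannot be told apart, and wild-type hippocampus was not analysed here.

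Neurexins sit mainly on the presynaptic membrane and bind neuroligins and LRRTMs on the postsynaptic side. Neuroligin 1 is known at excitatory synapses, neuroligin 2 at inhibitory synapses and neuroligin 3 at both. LRRTMs are postsynaptic proteins of excitatory synapses that help to hold AMPA-type glutamate receptors there, and Lrrtm4 is known for its high expression in granule cells of the dentate gyrus. The comparison asks whether the RNA of these partners across the cleft differs between n-Braf and control hippocampus.

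Promoter sequence from RefSeq (GRCm38.p6) was matched for 6 of the 9 genes in 10 windows, each the 250 bases before an annotated start. A window of each of 3 genes is printed 5′ to 3′ along the gene's strand because the results below turn on these genes: Lrrtm3 had the largest difference between groups, Lrrtm4 was the member with a lower n-Braf mean, and Nlgn2 had the highest level per length of merged exons in the controls. Capitals mark the motifs found, on either strand: GGGCGG, a GC box, in the Nlgn2 window, and TATAAA, the letters of a TATA box, which reads on the opposite strand in the Lrrtm4 window. Lrrtm4 has a second annotated start, and its window at chr6:80019393-80019642 (54.0% G and C, 8 CpG, none of the searched motifs) is not printed.
Lrrtm3, chr10:64090256-64090505, minus strand: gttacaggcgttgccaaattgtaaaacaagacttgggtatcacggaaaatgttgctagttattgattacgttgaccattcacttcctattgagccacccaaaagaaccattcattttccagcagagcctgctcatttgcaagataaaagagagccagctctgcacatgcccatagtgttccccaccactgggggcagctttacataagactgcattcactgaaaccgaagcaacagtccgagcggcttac
Lrrtm4, chr6:80018627-80018876, plus strand: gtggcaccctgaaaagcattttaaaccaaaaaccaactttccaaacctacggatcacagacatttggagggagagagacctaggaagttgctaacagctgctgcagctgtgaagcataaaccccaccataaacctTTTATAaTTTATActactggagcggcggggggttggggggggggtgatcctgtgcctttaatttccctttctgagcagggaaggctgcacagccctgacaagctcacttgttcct
Nlgn2, chr11:69837785-69838034, minus strand: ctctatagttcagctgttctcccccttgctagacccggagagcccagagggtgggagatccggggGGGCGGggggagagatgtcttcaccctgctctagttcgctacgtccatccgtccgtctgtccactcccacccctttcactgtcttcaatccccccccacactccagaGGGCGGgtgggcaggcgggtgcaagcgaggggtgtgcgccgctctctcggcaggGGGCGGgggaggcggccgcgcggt
The 3 windows differ in base composition. The Nlgn2 window holds 67.6% G and C with 18 CpG, the printed Lrrtm4 window 49.2% with 3, and the Lrrtm3 window 46.0% with 6, against medians of 52.4% and 6 over 32851 windows of all genes. The GC box is found in 32.7% of all windows, and the TATA box in 12.4%. Another 5 patterns of factors that act downstream of signalling kinases were searched on both strands: TGACGTCA (1.55% of all windows) and its core TGACG (17.8%), which overlap each other, TGANTCA (6.75%), GCGNGGGCG (4.70%) and CCGGAAG (6.91%). Among the 10 windows of the 6 genes, TGANTCA was found in 1 window of Nrxn3 and the other 4 patterns in none. These are matches of letters and say nothing of binding.

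The genes are placed on GRCm38, the assembly that mm10 names. By GENCODE M21 all are protein coding, and their spans run from 6.0 kb for Lrrtm2 to 1612.1 kb for Nrxn3. Nrxn2 lies at chr19:6418731-6544169 (plus strand) and Nrxn3 at chr12:88722876-90334935 (plus). Nlgn1 lies at chr3:25426215-26332460 (minus), Nlgn2 at chr11:69823122-69837784 (minus) and Nlgn3 at chrX:101299168-101325963 (plus). Lrrtm1 lies at chr6:77242689-77257791 (plus), Lrrtm2 at chr18:35209003-35215024 (minus), Lrrtm3 at chr10:63928472-64090277 (minus) and Lrrtm4 at chr6:80018877-80810143 (plus). Lrrtm1, Lrrtm2 and Lrrtm3 each lie wholly inside the span of an alpha-catenin gene on the opposite strand: Ctnna2, Ctnna1 and Ctnna3 in that order. Exons of Lrrtm2 and Ctnna1 share 95 bases, and those of the other pairs share 0. The spans of Nrxn3, Nlgn1, Nlgn3 and Lrrtm4 overlap other counted gene models on the same strand. For Nlgn3 this is the processed transcript Gm21986. Counts of these genes, and of Nrxn2, were not whole in all 6 libraries, and sharing of reads was not tested.

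The libraries held between 25227112 and 31832245 assigned counts, and the 9 genes had between 443 and 8942 counts each in a library, so all 9 passed the filter on low counts. Counting error at the lowest count of a gene ran from 1.32% for Nrxn2 to 4.75% for Lrrtm3 and covers sampling of reads only. Braf, the gene that carries the mutation, had a control mean of 119 ± 4.18 CPM and an n-Braf mean of 191 ± 12.1 (SD over 3 libraries), a log2 fold change of 0.69 with an adjusted p of 0.0533. Hippocampal pyramidal and granule neuron markers were all measured (11 of 11 tested, 0 at zero in any library). Markers of the choroid plexus, a tissue within the ventricles, summed to 2385 and 1336 CPM in controls 1 and 2. They summed to 36.1 in control 3 and to between 22.8 and 36.7 in n-Braf. Control 1 stood apart in its counts over all genes, where chi-square over its degrees of freedom was 51.0 to 69.1 against each other library and 8.88 to 14.1 between the others. Levels below are TMM-scaled CPM, where CPM is the count of a gene set against a common library total, and differences are log2 fold changes, n-Braf minus control, from edgeR's quasi-likelihood test.

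None of the 9 genes passed an adjusted p of 0.05, and neither did any of the 20604 genes tested (percentage called 0.0%). At an unadjusted p under 0.05 the test gave 1405 genes (6.82%) and 0 of the 9. DESeq2 called 79 of 18571 genes (0.425%) and 0 of the 9, with 1 of the 9, Lrrtm3, at an unadjusted p under 0.05 (0.0283), a level that 5.6% of all genes reached there. Robust quasi-likelihood called 0.0243% of genes and quasi-likelihood without legacy settings 0.00485%, with 0 of the 9 in both. The authors' deposited table has 29 genes past 0.05 (0.141%) and 0 of the 9. The fitted value was above 0 for 8 of the 9 genes (88.9%) and for 49.0% of all genes tested. The median log2 fold change was 0.11 over the 9 and -0.0042 over all genes. In 2 of the 9, Nlgn1 and Nlgn3, every n-Braf library lay above every control, which holds for 6.09% of all genes tested. The 9 genes were measured in the same 6 libraries, so they are not separate replicates of the comparison. In bulk tissue, fewer cells that express a gene and less RNA per cell cannot be told apart.

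**Figure D1:**
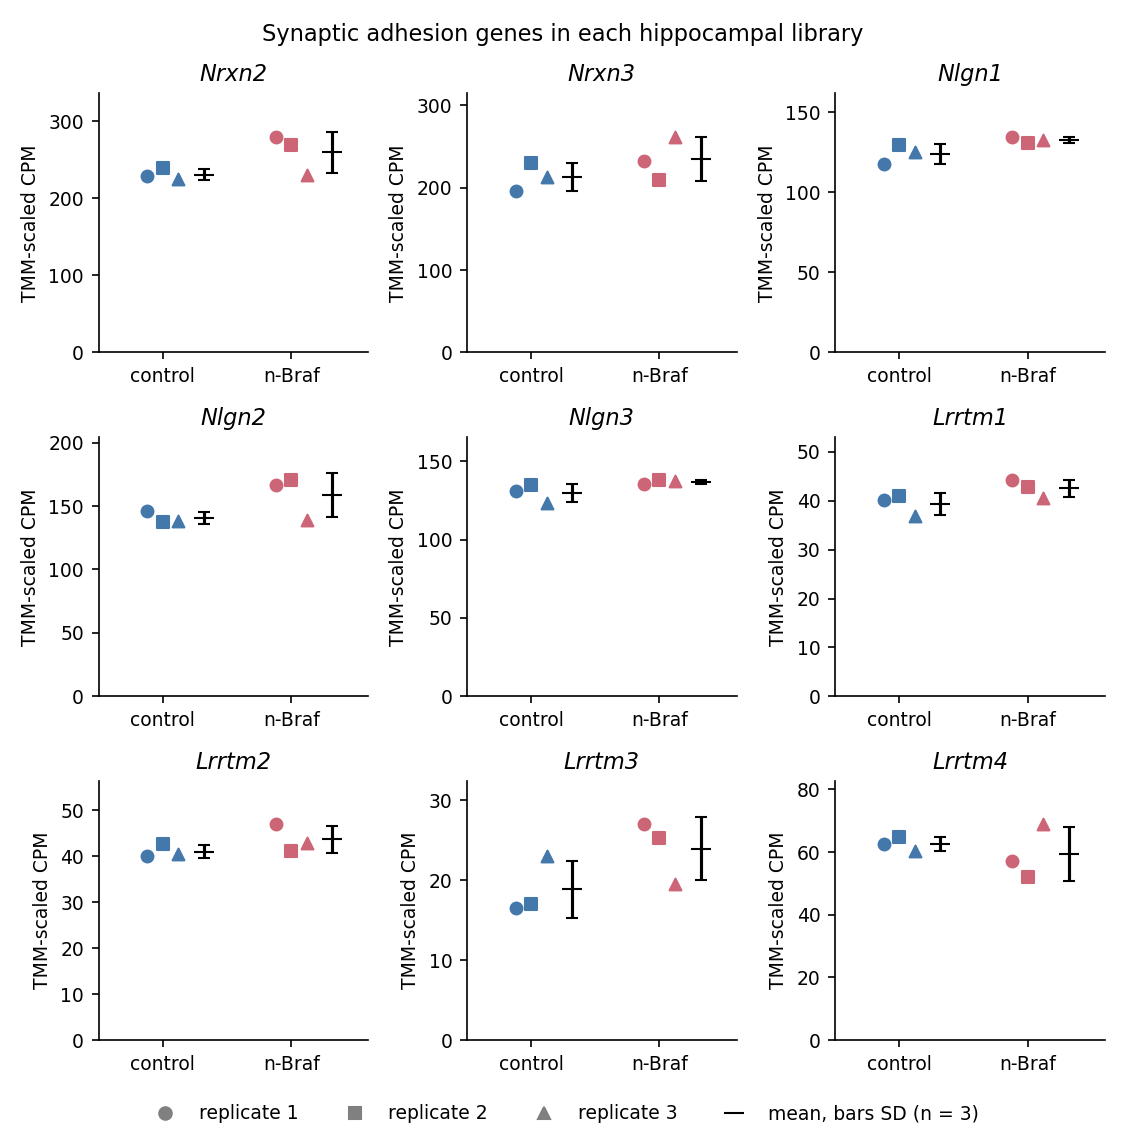
TMM-scaled CPM of each gene (vertical axis, starting at 0) in the 3 control and 3 n-Braf libraries, with 1 marker shape per replicate number and the mean and SD of each group. The groups overlap in 7 of the 9 panels, and in those of Nlgn1 and Nlgn3 every n-Braf point lies above the controls.

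The presynaptic partners come first. Nrxn2, whose long alpha forms and short beta forms bind the postsynaptic partners, was at 228, 239 and 225 CPM in controls 1 to 3 and at 280, 269 and 230 in n-Braf 1 to 3. n-Braf 1 and 2 were above all controls, and n-Braf 3 was inside their range. Its log2 fold change was 0.17 (SE 0.08, 95% interval -0.01 to 0.35), with an unadjusted p of 0.0673 and an adjusted p of 0.770. Leaving out n-Braf 1 gave 0.11. Nrxn3, a neurexin that is also a receptor for C1q-like ligands, was at 196, 230 and 213 CPM in the controls and at 232, 209 and 262 in n-Braf. Here n-Braf 3 was the highest library and n-Braf 2 lay among the controls, the reverse of their places for Nrxn2. The log2 difference between groups was 0.14 (SE 0.09, 95% interval -0.07 to 0.35, adjusted p 0.849). It was 0.08 without control 1 and 0.22 without n-Braf 2. The log2 ratio of Nrxn3 to Nrxn2 in n-Braf ran from -0.36 in n-Braf 2 to 0.19 in n-Braf 3, a range that held all 3 controls (-0.22 to -0.06). The mean ratio differed by -0.03 between the groups (two-sided exact permutation test, p = 0.9).

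In 2 of the 3 neuroligins, Nlgn1 and Nlgn3, every n-Braf library lay above every control, as in 6.09% of all genes tested. Nlgn1, the neuroligin of excitatory synapses, was at 117, 130 and 125 CPM in the controls and at 135, 131 and 133 in n-Braf. The margin, between n-Braf 2 and control 2, was smaller than the spread of the controls. The fitted log2 difference was 0.10 (SE 0.06, 95% interval -0.04 to 0.24, adjusted p 0.834), and 0.06 without control 1. Nlgn3, which works at both kinds of synapse, was at 131, 135 and 123 CPM in the controls and at 135, 138 and 137 in n-Braf. Control 2 came close to n-Braf 1, and control 3 was the lowest. For Nlgn3 the log2 fold change was 0.08 (SE 0.06, 95% interval -0.06 to 0.21, adjusted p 0.881), and 0.04 without control 3.

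Nlgn2, the neuroligin of inhibitory synapses, was at 146, 138 and 139 CPM in the controls and at 167, 170 and 139 in n-Braf. n-Braf 1 and 2 stood above all controls, while n-Braf 3 had the value of the lower controls, the same order of n-Braf libraries as for Nrxn2 except that n-Braf 2 led. Its log2 fold change was 0.17 (SE 0.08, 95% interval -0.02 to 0.36, unadjusted p 0.0691, adjusted p 0.771). The balance of the inhibitory to the excitatory neuroligin, the log2 ratio of Nlgn2 to Nlgn1, averaged 0.18 ± 0.12 over the control libraries and 0.25 ± 0.17 over those of n-Braf (SD over 3). The difference of 0.07 had a p of 0.8 (two-sided exact permutation test). The log2 ratio of Nlgn3 to Nlgn1 differed by -0.02 between the groups (two-sided exact permutation test, p = 0.8).

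The LRRTM genes held both the highest and the lowest difference of the 9. Lrrtm3 is a neurexin-binding protein of excitatory synapses. It was at 16.5, 17.0 and 23.0 CPM in the controls and at 27.0, 25.3 and 19.5 in n-Braf. n-Braf 1 and 2 were above all controls, but control 3 was above n-Braf 3, so the groups overlapped. Its log2 fold change was 0.35 (SE 0.16, 95% interval -0.01 to 0.71), a fold of 1.27, with an unadjusted p of 0.0573 and an adjusted p of 0.747. Control 3 decided much of its size: without that library the log2 fold change was 0.51 (adjusted p 0.404), and with control 3 as the only control it was 0.06.

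Lrrtm4, which besides neurexins binds heparan sulphate proteoglycans, was at 62.5, 64.9 and 60.4 CPM in the controls and at 57.1, 52.0 and 68.9 in n-Braf. n-Braf 3 was the highest library, and n-Braf 1 and 2 were below all controls, the opposite of their places for Lrrtm3, Nlgn2 and Nrxn2. The group difference in log2 was -0.08 (SE 0.10, 95% interval -0.30 to 0.15, adjusted p 0.945). The sign rests on n-Braf 2: without that library the value was 0.0072. Without control 2 it was -0.05. Unlike the other LRRTM genes, Lrrtm4 does not lie inside a catenin gene.

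Lrrtm1 and Lrrtm2, the LRRTMs best known for AMPA receptor anchoring, varied least between libraries within this family. Lrrtm1 was at 40.2, 41.1 and 36.8 CPM in the controls and at 44.2, 42.9 and 40.6 in n-Braf. n-Braf 1 and 2 were above the controls and n-Braf 3 was among them. For Lrrtm1 the log2 fold change was 0.11 (SE 0.07, 95% interval -0.05 to 0.28, adjusted p 0.843), and 0.07 without control 3. Lrrtm2 was at 39.9, 42.6 and 40.5 CPM in the controls and at 46.9, 41.2 and 42.9 in n-Braf. n-Braf 1 was well above the controls, n-Braf 3 just above them and n-Braf 2 inside their range. Its log2 fold change was 0.09 (SE 0.07, 95% interval -0.07 to 0.26, adjusted p 0.885), and 0.03 without n-Braf 1.

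Ratios inside the family did not separate the groups. Against Lrrtm1, the log2 ratio of Lrrtm3 differed by 0.23 (p = 0.4), that of Lrrtm4 by -0.20 (p = 0.4) and that of Lrrtm2 by -0.02 (p = 0.7), each by a two-sided exact permutation test. Over the 6 ratios tested in the 3 families the adjusted p was 0.9 for each, and 3 libraries against 3 cannot give an unadjusted p below 0.1. The Lrrtm4 to Lrrtm1 ratio lay between 0.64 and 0.71 in the controls, and in n-Braf at 0.37, 0.28 and 0.76. The controls thus lay inside the n-Braf range. The Lrrtm3 to Lrrtm1 ratio lay at -1.28, -1.27 and -0.68 in the controls and at -0.71, -0.76 and -1.06 in n-Braf, with control 3 the highest of all.

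**Figure D2:**
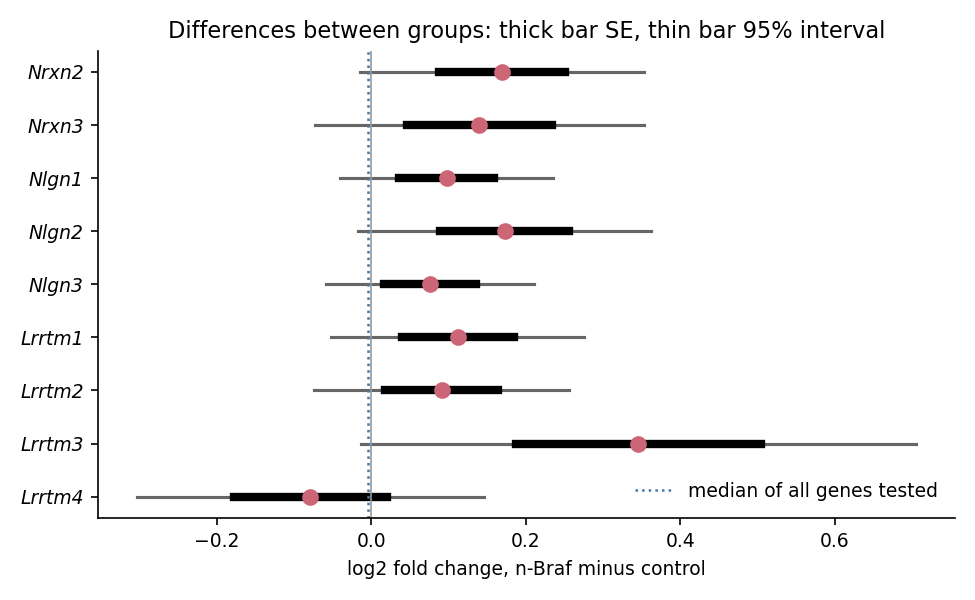
Log2 fold change of each gene (horizontal axis, n-Braf minus control) with its SE (thick bar) and 95% interval (thin bar), and the median of all genes tested as a dotted line. All 9 intervals include 0, and Lrrtm3 has the widest, from -0.01 to 0.71.

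The catenin genes around 3 of the LRRTMs did not share one direction. Catenins of this class link cadherins to actin. Ctnna1, around Lrrtm2, was at 56.3, 44.3 and 44.2 CPM in the controls and 37.5, 35.7 and 39.2 in n-Braf, with every n-Braf library below the controls, as in 5.44% of all genes. Its log2 fold change was -0.37 (SE 0.10, adjusted p 0.543), while that of Lrrtm2 was 0.09. The value was 0.07 (SE 0.07) for Ctnna2, around Lrrtm1, and -0.12 (SE 0.19) for Ctnna3, around Lrrtm3. The library kit keeps strand, but the strand setting of the counting is not given in the sources used here, so reads of a gene and of its host on the other strand may not be told apart. Counts of Lrrtm1 and Lrrtm3 were whole numbers in all 6 libraries (within 1e-06), and that of Lrrtm2 was not whole in 1.

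Levels of different genes were compared per length, as CPM per kb of merged exons in GENCODE M21. In the controls the order was Nlgn2 (24.3), Nrxn3 (16.9), Nrxn2 (16.7), Nlgn3 (14.0), Lrrtm1 (13.0), Lrrtm4 (10.2), Nlgn1 (9.25), Lrrtm2 (6.81) and Lrrtm3 (4.43), a 5.50-fold range. Nrxn3 and Nrxn2, Nlgn3 and Lrrtm1, and Lrrtm4 and Nlgn1 are neighbours whose ranges over the 6 libraries overlapped, and the other neighbours did not overlap. The neuroligins were spread over the order, from Nlgn2 at its top to Nlgn1 near its lower end, while the neurexins were neighbours and the LRRTMs all ranked below Nlgn3 by their means. The order depends on which length is taken. With the longest annotated transcript in place of merged exons, Nrxn2 came first (34.6), then Nrxn3 (26.9) and Nlgn2 (25.3).

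**Figure D3:**
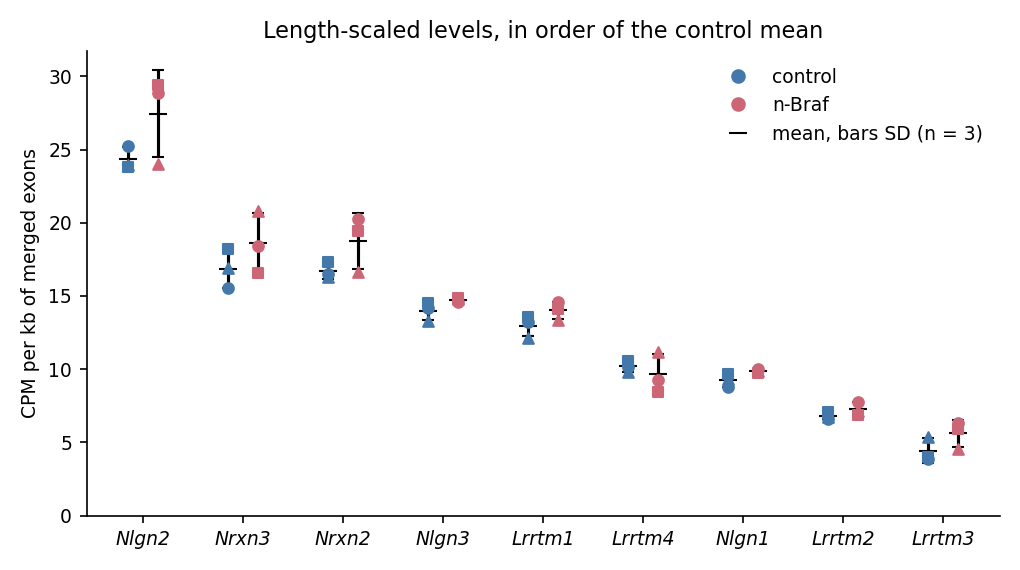
CPM per kb of merged exons (vertical axis, starting at 0) for the 9 genes in the order of the control mean, with 1 point per library and the mean and SD of each group. Nlgn2 stands above the others in all 6 libraries, and Lrrtm3 is the lowest in all 6.

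The libraries of n-Braf were not alike in these genes. On log2 CPM, n-Braf 3 deviated from the mean of the 6 libraries by -0.09 for Nrxn2, -0.10 for Nlgn2 and -0.11 for Lrrtm3, where n-Braf 1 was at 0.20, 0.16 and 0.36. For Nrxn3 and Lrrtm4 n-Braf 3 was the highest library, at 0.23 and 0.18. Without n-Braf 3 the log2 fold change was 0.25 for Nrxn2 (unadjusted p 0.0043, adjusted p 0.477) and 0.26 for Nlgn2 (unadjusted p 0.0032, adjusted p 0.472). It was 0.47 for Lrrtm3 (unadjusted p 0.0136, adjusted p 0.544), -0.20 for Lrrtm4 (unadjusted p 0.0228, adjusted p 0.583) and 0.05 for Nrxn3. Summed over the 9 genes, CPM ran from 978 to 1036 in the controls and from 1072 to 1124 in n-Braf. This sum is weighted to the most abundant genes and was not tested. The neurexins summed to 424 to 469 in the controls and 478 to 512 in n-Braf, and the neuroligins to 387 to 402 and 409 to 439. Sums of the LRRTMs overlapped, at 159 to 165 and 161 to 175.

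Markers of other cell types and of neighbouring cortex differed between the same libraries. The order of the 6 libraries for Lrrtm4 was that of the mean of the 11 hippocampal pyramidal and granule neuron markers, which deviated by 0.24 in n-Braf 3 and by -0.06 and -0.12 in n-Braf 1 and 2. The summed CPM of that list was 734 to 790 in the controls and 681 to 944 in n-Braf. Of its 11 markers 7 were higher in n-Braf and 4 lower. Their median log2 fold change was 0.11, of the opposite sign to that of Lrrtm4. For Lrrtm3, the 3 highest libraries (n-Braf 1, n-Braf 2 and control 3) were also the 3 highest for 12 neocortex markers, with mean deviations of 0.23, 0.21 and 0.10. The neocortex list summed to 379 to 497 CPM in the controls and 423 to 559 in n-Braf, with 10 of 12 markers higher in n-Braf, 2 lower and 0 at zero. With the list's mean as a covariate the log2 fold change of Lrrtm3 was 0.15 (adjusted p 0.902), that of Nlgn2 0.09 and that of Nrxn2 0.11, and Lrrtm4 was at 0.02. Nrxn3 was larger with it, at 0.21 (unadjusted p 0.0432, adjusted p 0.881), and the other 4 genes lay between 0.09 and 0.11.

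Inhibitory neuron markers (10 of 10 tested, 9 higher and 1 lower in n-Braf) showed the same split of n-Braf libraries as Nlgn2, with mean deviations of 0.13, 0.12 and -0.11 in n-Braf 1 to 3. The split is not particular to these: the neocortex list (0.23, 0.21 and -0.19), Nrxn2 and Lrrtm3 had it too. The inhibitory neuron markers summed to 585 to 675 CPM in the controls and 643 to 756 in n-Braf, with 0 at zero. Their part in the Nlgn2 values was not tested. Myelin markers were lower in n-Braf for 10 of 10 genes, summing to 1711 to 2221 CPM in the controls and 1454 to 1989 in n-Braf, with 0 at zero. With the myelin list as a covariate the log2 fold change was 0.04 for Nrxn2, 0.07 for Nlgn1, 0.07 for Nlgn2 and 0.04 for Nlgn3. It was 0.03 for Lrrtm1, 0.06 for Lrrtm2, 0.30 for Lrrtm3 and 0.02 for Lrrtm4. That of Nrxn3 was larger with it, at 0.18, and the median of the 9 genes was 0.058 in place of 0.11. With the choroid plexus list as a covariate the value was lower for Lrrtm3 (0.05), Nrxn3 (0.09) and Nlgn1 (0.07). It was higher for Nlgn3 (0.15), Lrrtm1 (0.22), Nrxn2 (0.22) and Nlgn2 (0.22), and little changed for Lrrtm2 (0.10) and Lrrtm4 (-0.06). The adjusted p was 0.9999 for each. Leaving out controls 1 and 2, where those markers were high, gave 0.15 for Nlgn3, 0.21 for Lrrtm1 and -0.03 for Lrrtm4.

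**Figure D4:**
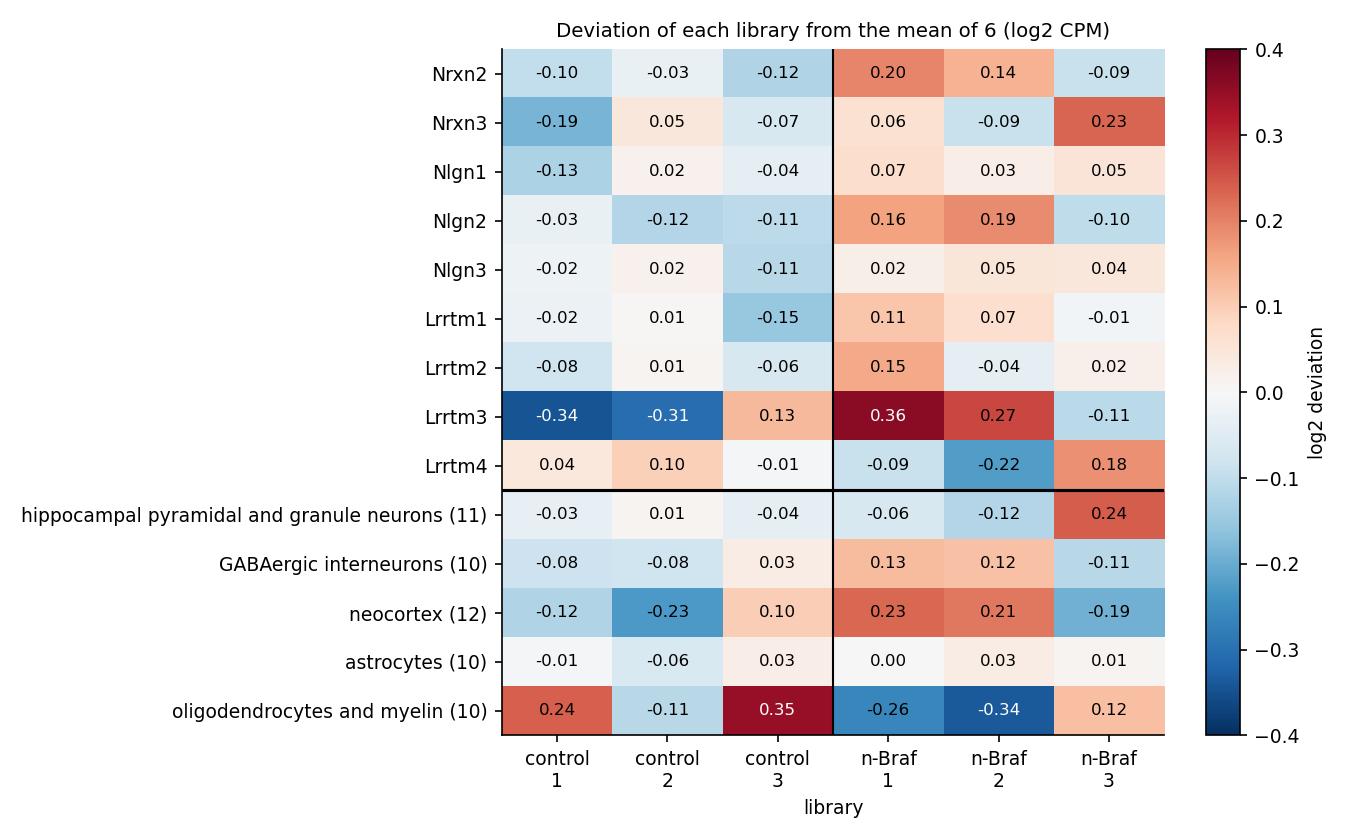
Deviation of each library (columns) from the mean of the 6 libraries in log2 CPM, for the 9 genes (rows above the line) and for the mean of 5 marker lists (below it, number of genes in brackets), red above and blue below the mean. n-Braf 3 is red for Nrxn3 and Lrrtm4 and blue for Nrxn2, Nlgn2 and Lrrtm3, where n-Braf 1 and 2 are red.

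Genes that act with these proteins, or in other synaptic adhesion systems, were taken from 7 lists, 78 genes in all, and all were tested. They are called partner genes here, although 39 of them are other synaptic adhesion organisers. None was called (percentage called 0.0%). An unadjusted p under 0.05 was found for 11 of the 78, against 6.82% of all genes tested, and 67 were higher in n-Braf and 11 lower, against 49.0% of all genes higher. Their median log2 fold change was 0.11, that of the 9 adhesion genes. Lists of neuron markers had like medians: 0.11 for hippocampal pyramidal and granule neurons, 0.09 for inhibitory neurons and 0.15 for neocortex. The median was 0.05 for astrocyte markers and -0.31 for myelin markers. In 16 of the 78 every n-Braf library was above the controls (6.09% of all genes tested), and in 2 every one was below (5.44%).

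Ligands and receptors of neurexins came first. Of 10 secreted neurexin ligands, 8 were higher and 2 lower, with a median of 0.18. The log2 fold change was 0.19 (SE 0.10) for Nxph1, a neurexophilin of inhibitory neurons, 0.27 (SE 0.19) for Nxph3 and 0.16 (SE 0.11) for C1ql3. C1ql2, a granule cell ligand of Nrxn3 and also one of the 11 hippocampal markers above, was at 29.5, 29.7 and 22.2 CPM in the controls and 20.2, 18.03 and 30.03 in n-Braf. Its 6 libraries stood in the same order as for Lrrtm4, and its log2 fold change was -0.26 (SE 0.19, adjusted p 0.866). Of 6 other postsynaptic binders of neurexins, 5 were higher, with a median of 0.16. Adgrl1, the latrophilin 1 receptor, was at 385, 399 and 370 CPM in the controls and 456, 440 and 413 in n-Braf, with no overlap, a log2 fold change of 0.18 and an adjusted p of 0.672. Grid1, a delta glutamate receptor gene, had a log2 fold change of 0.06, and the calsyntenin Clstn3 one of 0.13.

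Scaffolds and inhibitors of neuroligins and adaptors of neurexins followed. All 10 neuroligin scaffolds and inhibitors were higher in n-Braf, with a median of 0.12, and in 4 of them, Dlg2, Dlg3, Dlg4 and Magi2, every n-Braf library was above the controls. Over all genes tested, 49.0% were higher and 6.09% lay wholly above. Dlg2, the scaffold PSD-93, was at 348, 398 and 401 CPM in the controls and 471, 441 and 465 in n-Braf. Every n-Braf library was above the controls, and its log2 fold change of 0.26 (SE 0.07) was the largest of this list, with an adjusted p of 0.543. Dlg4, the scaffold PSD-95, had a log2 fold change of 0.17 (adjusted p 0.672), and Dlg3 and Magi2 both had 0.15. Of 6 presynaptic adaptors of neurexins, 5 were higher, with a median of 0.13. Among them Apba1, which encodes Mint1, had 0.21, Lin7a 0.22, Apba2 0.12 and Cask, a kinase-like scaffold, 0.08.

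Genes that process neurexins or their transcripts held both signs. The splicing regulators Khdrbs3, Khdrbs2 and Khdrbs1, which set the use of an alternative neurexin exon, had log2 fold changes of 0.10, 0.07 and -0.04. The sheddases Adam10, Adam17, Bace1 and Mmp9, proteases that cut adhesion proteins at the membrane, had a median of -0.02 with 2 of 4 higher. Gene counts do not show which splice forms were made. Of 39 other synaptic adhesion organisers, 35 were higher, with a median of 0.11, 9 lay wholly above the controls and 1 wholly below. The shares over all genes tested were 49.0%, 6.09% and 5.44%.

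**Figure D5:**
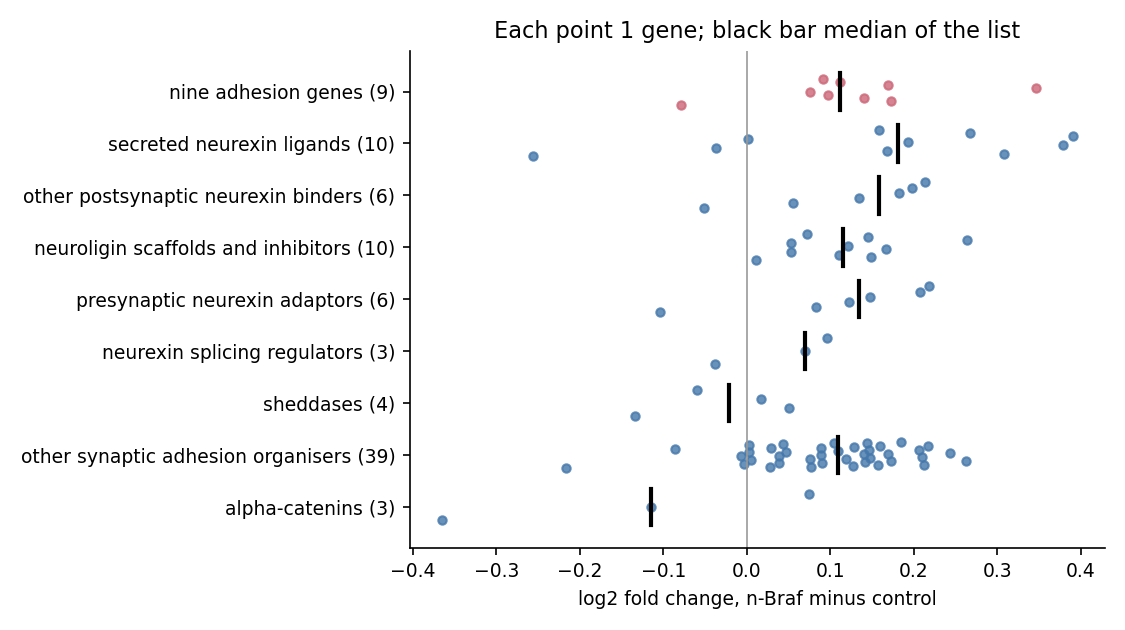
Log2 fold change of each gene (points; horizontal axis, n-Braf minus control) in the adhesion families and in lists of their partners and hosts, with the number of genes in brackets and a black bar at the median. The medians of the 9 adhesion genes and of most partner lists lie between 0.07 and 0.18, and those of the sheddases and the catenins are below 0.

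Outside the 9 genes, those with the profile over the 6 libraries closest to the mean profile of the 9 were sought among 9351 genes with a mean CPM of at least 10, each profile scaled to its own mean and SD. The root mean square difference was 0.0855 for Minpp1, an inositol polyphosphate phosphatase, 0.101 for Cdk5r1, the p35 activator of Cdk5, 0.118 for Scube1 and 0.144 for Ly6e. In the scaled mean profile of the 9 genes, control 1 and control 3 were lowest (-1.13 and -1.14), control 2 was at -0.07, and n-Braf 1 was highest (1.41). The log2 fold changes of these 4 genes ran from 0.08 to 0.62. The scaling removes the size of the difference, so likeness here is one of order and spacing only.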

How the data were processed

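Hippocampal RNA of 6 mice, 1 library each, was sequenced from 10.0 ng of total RNA with a strand-keeping SMART-Seq kit, per the labels' protocols. Per the submitters' processing notes, bcl2fastq 2.20, fastp 0.20.1, STAR, RSEM and edgeR 3.36.0 were used with build mm10. For the annotation and the strand setting of the counting, the sources used here give nothing. RSEM expected counts fill the deposited table, and 26.2% to 31.4% of values per library were not whole. The authors' deposited columns also give a log2 fold change, a log2 CPM and a p-value per gene, raw and adjusted. Labels give each mouse its own number, so replicates are separate animals.

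Counts were rounded. filterByExpr of edgeR 4.0.16 (minimum count 10) kept 20604 genes, and TMM scaling, the quasi-likelihood test in R 4.3.3 with group as the only term, and Benjamini-Hochberg adjustment over all genes followed (threshold 0.05). Log2 CPM used a prior count of 2. Gene lengths and coordinates came from GENCODE M21, which holds 20125 of the 20620 identifiers. DESeq2 1.42.0, limma-voom (limma 3.58.1), other scalings and filters, age as a covariate, a replicate block and leaving out libraries were alternatives. Non-legacy and robust quasi-likelihood and the marker-list covariates were added after seeing the data. The script was tested on simulated data, with 50 genes changed at each fold. It called 1 of 50 at a fold of 1.25, 13 at 1.5, 25 at 2 and 36 at 4. It also called 13 unchanged genes. The largest fold among the 9 genes was 1.27, that of Lrrtm3. The changed genes were drawn at random from all genes tested, so these shares do not give the power for the 9 genes, which was not measured. Members and lists were chosen with earlier results of these data known. Named were all 9 members, Braf, up to 4 genes per partner or host list with the smallest unadjusted p, every gene of lists of up to 4, and the 5 genes closest in profile. Some of the genes so selected are left out here.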

Additional observations from a re-analysis of the deposited data

How the results depend on the processing

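Over 22 alternatives, 194 of 198 values of the 9 genes kept their direction and their side of the threshold, and no adjusted p fell under 0.404, that of Lrrtm3 without control 3. The number of the 9 genes higher in n-Braf ran from 7 to 9, and that of the 78 partner genes from 54 to 67. The sign turned for Nrxn3 with age as a covariate (-0.029) and for Lrrtm4 with the neocortex list (0.019) or the myelin list (0.016) as a covariate and without n-Braf 2 (0.0072). The cause was not tested. The median of the 9 genes was 0.058 with the myelin list as a covariate. With age as a covariate the log2 fold changes were 0.69 for Lrrtm3, 0.30 for Nlgn2, 0.26 for Nrxn2 and -0.32 for Lrrtm4. The quasi-likelihood test gave these genes unadjusted p-values of 0.0037, 0.0201, 0.0475 and 0.0111 in that order. The log2 fold change was 0.04 for Nlgn3 and 0.05 for Lrrtm2. Adjusted p-values of the 9 genes were at least 0.511, and age and group overlap little.

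Counts of genes called over the whole table moved from 0 to 29 higher and 50 lower with DESeq2, 4 higher and 1 lower with robust quasi-likelihood, 1 higher and 0 lower without legacy settings, 2 higher and 1 lower with controls 1 and 2 left out, 1 higher and 0 lower with mitochondrial and the 20 most abundant genes left out, and 1 higher and 1 lower with the neocortex covariate. Leaving out 1 library in turn gave 0 to 6 higher and 0 to 76 lower, the highest of both without control 3. None of the 9 genes was among those calls.

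Whether the replicate numbers pair the mice cannot be decided from 3 libraries per group. Same-numbered libraries had correlations of their deviations of 0.103, -0.0457 and -0.0145. Those of differently numbered libraries ran from -0.123 to 0.155. With a replicate block 0 genes were called, and Lrrtm3 had a log2 fold change of 0.35 (p 0.0954).

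Leaving out 1 library in turn gave group differences of the log2 ratios of 0.0044 to 0.16 for Nlgn2 to Nlgn1, -0.065 to 0.026 for Nlgn3 to Nlgn1, -0.20 to 0.080 for Nrxn3 to Nrxn2, -0.058 to 0.023 for Lrrtm2 to Lrrtm1, 0.13 to 0.43 for Lrrtm3 to Lrrtm1 and -0.35 to -0.10 for Lrrtm4 to Lrrtm1. With the longest transcript as length, control means were 34.6 for Nrxn2, 26.9 for Nrxn3, 25.3 for Nlgn2, 15.2 for Nlgn3, 14.1 for Lrrtm4, 10.5 for Nlgn1 and 7.22 for Lrrtm2 CPM per kb. A group of 3 libraries and the SE of 0.06 to 0.16 limit what can be seen: the 95% intervals of the 9 genes reach from -0.30 to 0.71.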

Other observations

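The latrophilins, adhesion receptors that bind teneurins and FLRT proteins across the synapse, and the teneurins were singled out after their values were seen. All 3 latrophilin genes, Adgrl1 among them, lay wholly above the controls in every n-Braf library, which holds for 6.09% of all genes tested, and none passed the adjusted threshold. Adgrl2 was at 48.7, 46.4 and 54.4 CPM in the controls and 57.0, 59.9 and 60.0 in n-Braf, a log2 fold change of 0.24 (adjusted p 0.575). Adgrl3 was at 157, 154 and 168 CPM in the controls and 186, 182 and 185 in n-Braf, a log2 fold change of 0.21 (adjusted p 0.551). Unlike Nrxn2 and Nlgn2, both genes were as high in n-Braf 3 as in the other n-Braf libraries. Of their teneurin partners, Tenm1 was at 87.6, 105 and 101 CPM in the controls and 127, 120 and 105 in n-Braf, a log2 fold change of 0.26 (adjusted p 0.653), with n-Braf 3 level with control 2. Tenm4, with 209, 222 and 193 CPM in the controls and 249, 255 and 159 in n-Braf, was lowest of all in n-Braf 3. Tenm2 and Tenm3 had log2 fold changes of 0.05 and 0.10, and their groups overlapped.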
